A study of Mus musculus with 4 samples.

Results

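The genes examined were 9 members of the machinery with which a phagocyte binds antibody-coated particles and attacks them with oxidants, chosen by name from the 13834 genes of the count table. They comprise the 4 mouse Fc gamma receptors Fcgr1, Fcgr2b, Fcgr3 and Fcgr4, the shared signalling chain Fcer1g, and the NADPH oxidase subunits Cybb, Cyba, Ncf1 and Ncf4. All 9 were listed once, and all 9 were among the 12542 genes that passed edgeR's filter on low counts. RNA was sequenced from peritoneal macrophages of 2 Dnmt1fl/fl and 2 Dnmt1KO samples. Both genotypes carry floxed alleles of Dnmt1, the enzyme that copies DNA methylation after replication. Dnmt1KO mice also express Cre recombinase under the LysM promoter, which is active in myeloid cells including neutrophils. The labels call the controls wild type, and LysM-Cre mice without the floxed alleles were not analysed here. According to the methods, cells were washed from the peritoneum of young adult mice some days after an injection of thioglycolate broth, which recruits leukocytes, and the labels give no further treatment. The labels do not say whether each sample is 1 mouse or a pool, so the spread between samples may be partly technical. The comparison asks how loss of Dnmt1 in myeloid cells affects gene expression.

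Fc gamma receptors bind the constant part of IgG. Fcgr1, Fcgr3 and Fcgr4 are activating receptors that signal through the Fcer1g chain, whose cytoplasmic tail carries an activation motif that recruits the kinase Syk once phosphorylated. Fcgr2b is the inhibitory receptor, with an inhibitory motif in its own tail that recruits the phosphatase Inpp5d. Engaged activating receptors drive engulfment and assembly of the NADPH oxidase, in which membrane-bound Cybb and Cyba form the electron-carrying core and cytosolic subunits including Ncf1 and Ncf4 join with Rac proteins. The oxidase passes electrons from NADPH to oxygen in the phagosome and so makes superoxide.

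In the GENCODE M21 annotation of GRCm38, the build known as mm10, Fcgr2b, Fcgr4, Fcgr3 and Fcer1g lie near each other on chromosome 1, at 170958617 to 170976547, 171018920 to 171029761, 171051174 to 171064935 and 171229572 to 171234365. Fcgr1 lies on chromosome 3 from 96282909 to 96293969. The oxidase genes are dispersed, with Cybb on chromosome X from 9435252 to 9487771, Cyba on chromosome 8 from 122424776 to 122432930, Ncf1 on chromosome 5 from 134220053 to 134229625 and Ncf4 on chromosome 15 from 78244801 to 78262580. Each is annotated as protein-coding. The coding sequences of Fcgr2b and Fcgr3 are close copies in the exons of their extracellular domains. A pair of 255-base exons differs at 5 bases, an identity of 98.0%, and another pair of 255-base exons differs at 14 bases, an identity of 94.5%. The longest identical coding stretch is shown because it is where the sequences of these receptors are hardest to tell apart, although it is shorter than the full-length reads of this study. It spans 113 bases of the more alike pair, on the minus strand of GRCm38 at chr1:170966560-170966672 in Fcgr2b and chr1:171054053-171054165 in Fcgr3, and is written 5′ to 3′.
Fcgr2b and Fcgr3: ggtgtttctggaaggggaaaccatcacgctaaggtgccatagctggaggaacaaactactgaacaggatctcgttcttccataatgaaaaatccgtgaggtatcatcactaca
Of the 100-base stretches in Fcgr3 transcripts, 2.5% occurred unchanged in Fcgr2b. The deposited values of Fcgr2b and Fcgr3 are not whole numbers, and how reads were divided between genes is not given in the sources used here, so their split is uncertain. Fcgr2b shared 4.3% of its stretches with other genes in all, most of them in reverse orientation, as with Cplx2 (2.2%). Cyba and Ncf1 also had values that were not whole. Ncf1 overlaps Gtf2ird2 on the opposite strand, sharing 4.1% of its 100-base stretches. Cyba lies inside Gm20388, annotated on the opposite strand, but shared 0.0% of its 100-base stretches with transcripts of other genes. Fcgr2b overlaps the antisense gene Gm38204. Whether the libraries kept strand is not given in the sources used here, so reads of such overlapping genes may not be separable. Fcgr1, Fcgr4, Fcer1g, Cybb and Ncf4 had whole counts in all 4 samples.

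Dnmt1 methylates cytosine in CpG, so the promoters were examined for that dinucleotide. RefSeq promoter sequences on GRCm38.p6 were available for 8 of the 9 genes, all except Ncf4. In the 250 bases before the start, the members held from 1 to 6 CpGs, against a median of 6 over 32851 promoters. Fcgr1, Fcgr4 and Cybb each held 1, and 18.8% of all promoters held 1 or none. Cyba held the most. The promoters of Fcgr4 and Cybb are shown because their genotypes did not overlap in expression, and that of Cyba because it is the most CpG-rich of the group, each 5′ to 3′ with CpG in capitals. They lie at chr1:171018676-171018925 on the plus strand, chrX:9469325-9469574 on the minus strand and chr8:122432941-122433190 on the minus strand.
Fcgr4: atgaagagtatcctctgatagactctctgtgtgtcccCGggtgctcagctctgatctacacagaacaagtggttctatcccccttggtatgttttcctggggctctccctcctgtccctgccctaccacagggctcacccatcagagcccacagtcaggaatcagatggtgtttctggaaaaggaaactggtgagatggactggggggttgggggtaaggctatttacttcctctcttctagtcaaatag
Cybb: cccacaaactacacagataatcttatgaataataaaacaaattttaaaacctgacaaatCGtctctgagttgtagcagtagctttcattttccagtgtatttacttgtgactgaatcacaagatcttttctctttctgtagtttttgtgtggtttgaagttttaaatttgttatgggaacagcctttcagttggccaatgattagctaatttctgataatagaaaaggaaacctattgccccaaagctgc
Cyba: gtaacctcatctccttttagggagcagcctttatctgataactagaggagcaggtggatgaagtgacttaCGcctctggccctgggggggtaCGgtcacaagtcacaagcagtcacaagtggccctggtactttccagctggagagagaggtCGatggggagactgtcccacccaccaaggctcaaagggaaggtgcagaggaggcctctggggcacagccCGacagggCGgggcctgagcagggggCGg
The letters GAGGAA, the core of sites for the myeloid factor PU.1, were searched on both strands. They occurred before the start of Fcgr1, Fcgr3 and Fcgr4, 3 of the 8 genes, and in 23.3% of all promoters. These are descriptions of sequence, and methylation itself was not measured in these samples.

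The libraries held between 20228071 and 24198943 counts, with TMM factors from 0.910 to 1.04. Dnmt1, the deleted gene, was measured at 86.6 and 67.0 CPM (counts relative to the TMM-scaled library total) in Dnmt1fl/fl and at 37.0 and 42.7 CPM in Dnmt1KO samples, so transcripts remained in both Dnmt1KO samples. Its log2 fold change was -0.95, with an unadjusted p of 0.00839 by edgeR's quasi-likelihood test. Even this gene did not pass after adjustment over all genes. The macrophage markers, 10 of 10 detected, summed to 9161 to 10130 CPM in Dnmt1fl/fl and 9225 to 9776 CPM in Dnmt1KO samples. The markers of large resident peritoneal macrophages, 6 of 6 tested, summed to 186 and 253 CPM in Dnmt1fl/fl and to 115 and 174 CPM in Dnmt1KO samples. Of these, Timd4 and Icam2 were lower in both Dnmt1KO samples, as were 8.56% of all genes, and the other 4 overlapped between genotypes. The unadjusted edgeR p was 0.0624 for Timd4 and 0.0843 for Icam2. Dnmt1KO replicate 1 stood apart. Its neutrophil markers, of which 8 of 11 were tested, summed to 784 CPM against 202 to 271 CPM in the other 3 libraries, led by S100a9 at 320 CPM, although the defining genes Ly6g, Camp and Ngp were not among the genes tested. Its B cell markers, 7 of 7 tested, summed to 184 CPM against 399 to 608 CPM. Monocyte markers, 5 of 5 tested, were also lowest there, at 683 CPM against 875 to 1085 CPM, as were dendritic cell markers, 5 of 5 tested, at 18.4 CPM against 32.0 to 43.4 CPM. Its counts also leaned toward short transcripts. In these bulk samples, fewer cells of a type and less RNA per cell cannot be told apart. The members' fold changes are therefore given below with and without this library.

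None of the 9 genes differed between the genotypes by edgeR's quasi-likelihood test with adjustment over all genes, where 0% of the 12542 genes passed and 35 genes, 0.279%, had an unadjusted p under 0.05. Limma-voom also called 0 genes and DESeq2 called 1, which was not a member. Among the members, 0 had an unadjusted p under 0.05, and the adjusted p of each was 1.00. The log2 fold changes of Dnmt1KO over Dnmt1fl/fl ran from -0.20 for Cybb to 0.47 for Cyba, with a median of 0.17 against 0.0046 over all genes tested. Estimates were above 0 for 7 of 9 members, where 50.9% of all genes were above 0. Without Dnmt1KO replicate 1 the members' median turned to -0.036, and the estimates above 0 were those of Fcgr2b, Fcgr3, Fcgr4 and Ncf1. The genotypes did not overlap in 2 members, Fcgr4 and Cybb, where 16.7% of all genes did not overlap. The median SD between replicates of a genotype was 0.305 on the log2 scale for the members and 0.296 for all genes.

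**Figure D1:**
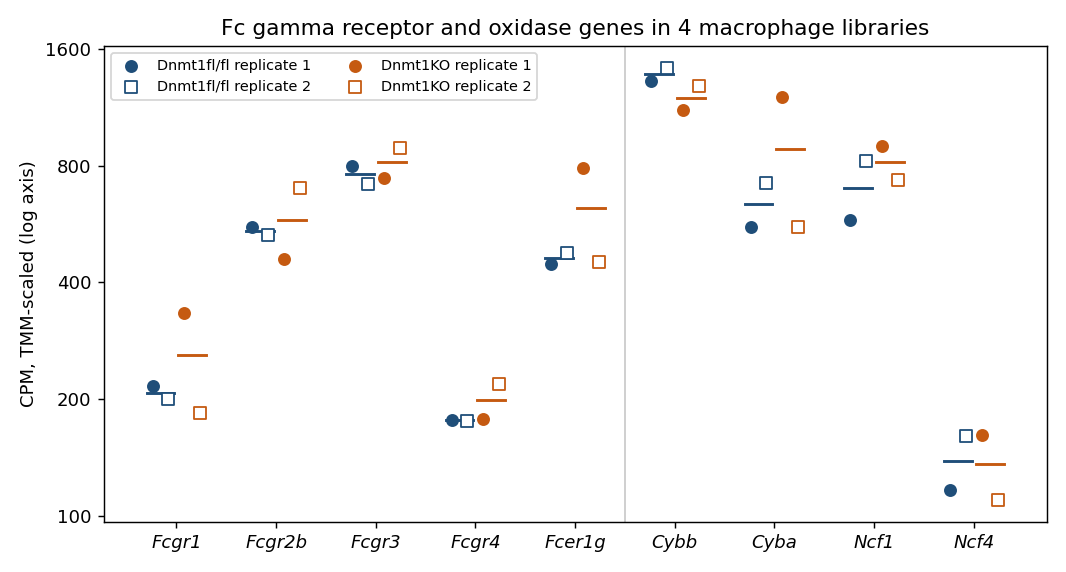
Each point is the level of a gene in 1 library, in TMM-scaled CPM on a log axis, with blue for Dnmt1fl/fl and orange for Dnmt1KO, circles for replicate 1 and squares for replicate 2. Lines mark genotype means (n = 2). The Dnmt1fl/fl points lie closer together than the Dnmt1KO points for the receptors. Dnmt1KO replicate 1 lies above the other libraries for Fcgr1, Fcer1g and Cyba, and by less for Ncf1 and, barely, Ncf4.

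Among the activating receptors, Fcgr1, the high-affinity receptor for monomeric IgG, was at 216 and 200 CPM in Dnmt1fl/fl replicates 1 and 2, and at 334 and 184 CPM in Dnmt1KO replicates 1 and 2. The Dnmt1KO libraries lay on either side of both controls, with a log2 fold change of 0.32 (standard error 0.33, 95% interval -0.51 to 1.14). Without Dnmt1KO replicate 1 it was -0.18, and without Dnmt1KO replicate 2 it was 0.68.
Fcgr3, a low-affinity receptor for immune complexes, was at 799 and 719 CPM in Dnmt1fl/fl and 744 and 889 CPM in Dnmt1KO macrophages. The genotypes overlapped, with a log2 fold change of 0.11 (standard error 0.24, 95% interval -0.50 to 0.71). It was 0.23 without Dnmt1KO replicate 1, -0.029 without Dnmt1KO replicate 2 and 0.013 with the length trend of each library removed, an alternative chosen after seeing the data.
Fcgr4, a receptor of intermediate affinity for some IgG subclasses, was nearly level in 3 libraries. It was at 177 and 176 CPM in Dnmt1fl/fl, and at 178 and 219 CPM in Dnmt1KO macrophages. Both Dnmt1KO libraries were above both controls, but replicate 1 only barely so. Their log2 fold change was 0.17 (standard error 0.23, 95% interval -0.39 to 0.74), and 8.14% of all genes had both Dnmt1KO libraries higher. It was 0.31 without Dnmt1KO replicate 1 and 0.015 without Dnmt1KO replicate 2. The genotypes overlapped when library totals alone were used for scaling, with an estimate of 0.11, and when each library's length trend was removed, with an estimate of 0.081.

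Fcer1g was at 447 and 477 CPM in Dnmt1fl/fl, and at 790 and 451 CPM in Dnmt1KO macrophages. Only Dnmt1KO replicate 1 was above the controls, and replicate 2 lay between them, for a log2 fold change of 0.43 (standard error 0.33, 95% interval -0.39 to 1.24). It was -0.036 without Dnmt1KO replicate 1 and 0.18 with the length trend removed. Without Dnmt1KO replicate 2 it was 0.77, in a fit where the lone Dnmt1KO library was assumed to vary like the controls.
Fcgr2b, the inhibitory receptor, was at 555 and 529 CPM in Dnmt1fl/fl and 460 and 700 CPM in Dnmt1KO macrophages. The Dnmt1KO libraries again lay on either side of the controls, but in the reverse order to Fcgr1 and Fcer1g. The log2 fold change was 0.10 (standard error 0.29, 95% interval -0.62 to 0.81), 0.37 without Dnmt1KO replicate 1 and -0.24 without Dnmt1KO replicate 2. B cells also express Fcgr2b, and the B cell markers were likewise lowest in Dnmt1KO replicate 1. Their part in the Fcgr2b value was not tested.

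Of the oxidase core, Cybb (gp91phox), the catalytic subunit, had the highest mean CPM of the members in both genotypes, although Cyba exceeded it in Dnmt1KO replicate 1. It was at 1322 and 1431 CPM in Dnmt1fl/fl, and at 1111 and 1285 CPM in Dnmt1KO macrophages. Both Dnmt1KO libraries were below both controls, and 8.56% of all genes had both lower. Its log2 fold change was -0.20 (standard error 0.24, 95% interval -0.81 to 0.41). The estimate stayed below 0 when any single library was left out, from -0.31 to -0.10. With the length trend removed, the Cybb genotypes overlapped and the estimate was -0.12.
Cyba (p22phox), which stabilises Cybb in the membrane, had another order of libraries. It was at 555 and 719 CPM in Dnmt1fl/fl, and at 1205 and 557 CPM in Dnmt1KO macrophages. Dnmt1KO replicate 1 was the highest library, and replicate 2 was close to the lower control, giving a log2 fold change of 0.47 (standard error 0.41, 95% interval -0.56 to 1.497). It turned to -0.20 without Dnmt1KO replicate 1 and was 0.21 with the length trend removed. Without Dnmt1KO replicate 2 it was 0.92, in a fit that rests on the lone Dnmt1KO replicate 1.

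The cytosolic organiser Ncf1 (p47phox) was at 580 and 821 CPM in Dnmt1fl/fl and 899 and 733 CPM in Dnmt1KO macrophages. Dnmt1fl/fl replicate 1 was the lowest library and the genotypes overlapped. The log2 fold change was 0.22 (standard error 0.28, 95% interval -0.49 to 0.93), 0.063 without Dnmt1KO replicate 1 and -0.0074 without Dnmt1fl/fl replicate 1.
Ncf4 (p40phox), which binds a phagosomal lipid and sustains oxidase activity, was at 117 and 161 CPM in Dnmt1fl/fl and 162 and 110 CPM in Dnmt1KO macrophages. The libraries fell into a low and a high level, with a sample of each genotype at each. The log2 fold change was -0.029 (standard error 0.30, 95% interval -0.78 to 0.72). It was 0.23 without Dnmt1fl/fl replicate 2, 0.22 without Dnmt1KO replicate 2 and -0.34 without Dnmt1KO replicate 1. With the length trend removed it was -0.15, and with library totals alone -0.12.

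**Figure D2:**
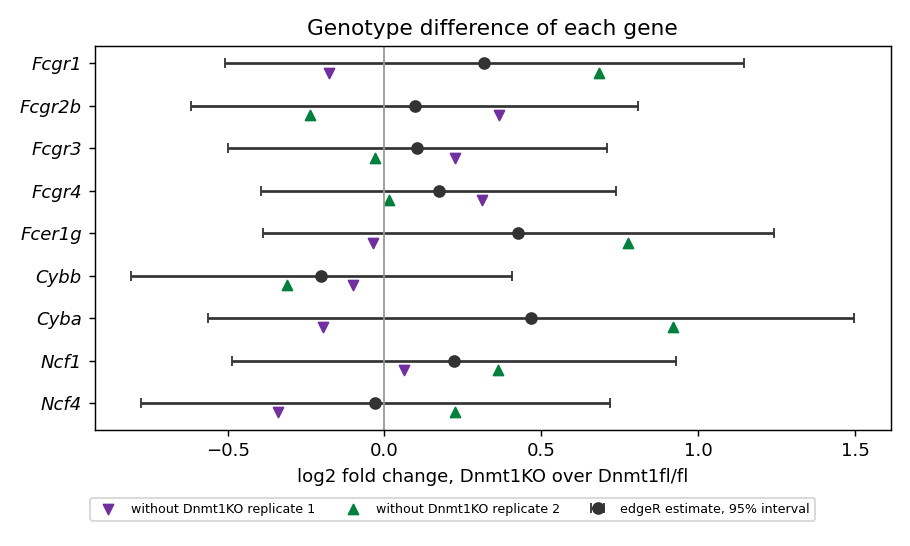
The horizontal axis is the log2 fold change of Dnmt1KO over Dnmt1fl/fl. Black points are edgeR estimates from all 4 libraries with 95% intervals, and triangles are estimates without 1 of the Dnmt1KO libraries. Every interval includes 0, and for Fcgr1, Fcgr2b, Fcgr3, Fcer1g, Cyba and Ncf4 the triangles fall on opposite sides of 0.

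The intervals show what 2 samples per genotype could not separate from no difference. For Fcgr4 the interval reached 0.74 on the log2 scale, and for Cyba it reached 1.497. Every member had at least 2391 counts in every sample. With 2 samples against 2, the smallest two-sided p of an exact permutation test is 0.3333.

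Compared per length, the members kept a broad order that depended in part on the length assumed. Levels were divided by the kilobases of the longest annotated transcript. In Dnmt1fl/fl macrophages Cyba (857 ± 156 CPM per kilobase; SD, n = 2), Fcer1g (676 ± 31.4) and Fcgr3 (563 ± 42.0) were highest. The ranges of Cyba (746 to 967) and Fcer1g (654 to 699) did not overlap on this length, but with the union of all annotated exons they did, at 535 to 692 and 511 to 546. Cybb (290 ± 16.3) and Ncf1 (243 ± 59.1) followed and overlapped each other. Fcgr2b (153 ± 5.25) and Fcgr4 (140 ± 0.771) came next, then Ncf4 (94.8 ± 21.5) and Fcgr1 (80.3 ± 4.45), which overlapped in range. With the exon union as the length, Fcgr2b fell below Fcgr4, at 93.7 against 140 CPM per kilobase, because its union is 5790 bases against 3544 for its longest transcript. The order of these receptors is therefore not settled by these values. In Dnmt1KO macrophages the means were 1184 ± 616 CPM per kilobase for Cyba (SD, n = 2), 909 ± 351 for Fcer1g and 606 ± 76.2 for Fcgr3, so the SD of Cyba and Fcer1g was far larger than in the controls.

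The Dnmt1KO libraries differed from each other more than the Dnmt1fl/fl libraries did. The median absolute log2 difference between Dnmt1KO replicates was 0.56 over the members and 0.484 over all genes. Between Dnmt1fl/fl replicates it was 0.115 over the members and 0.208 over all genes. Dnmt1KO replicate 1 was above replicate 2 by at least 0.2 in 5 members, Cyba (1.11), Fcgr1 (0.86), Fcer1g (0.81), Ncf4 (0.56) and Ncf1 (0.30), as were 38.2% of all genes. It was below by at least 0.2 in 4 members, Fcgr2b (-0.61), Fcgr4 (-0.30), Fcgr3 (-0.26) and Cybb (-0.21), as were 39.6% of all genes. The 3 receptor genes lower in replicate 1 are neighbours on chromosome 1, while Fcer1g, in the same region, was higher.

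Transcript length moved with part of this split. Over expressed genes with a known length, a smooth trend placed Dnmt1KO replicate 1 above replicate 2 by 0.622 at the length of Fcer1g, 683 bases, and by 0.607 at that of Cyba, 744 bases. At the length of Cybb, 4752 bases, the trend was -0.254. With the trend removed from each library, the difference between the Dnmt1KO libraries was 0.19 for Fcer1g, 0.51 for Cyba and 0.04 for Cybb. That of Fcgr1 was 0.79, little different from before. For the short receptor transcripts the gap widened, to -0.72 for Fcgr4 and -0.65 for Fcgr3. The genotypes overlapped in all 9 members after this correction, and 0 members passed the edgeR test. The neutrophil, B cell, monocyte and dendritic cell markers given above also separate Dnmt1KO replicate 1 from the other libraries. Neutrophils express several of the members, among them Fcgr4, Fcgr3, Fcer1g and the oxidase genes. The part of length and of other cells in each member's value was not tested beyond this correction.

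**Figure D3:**
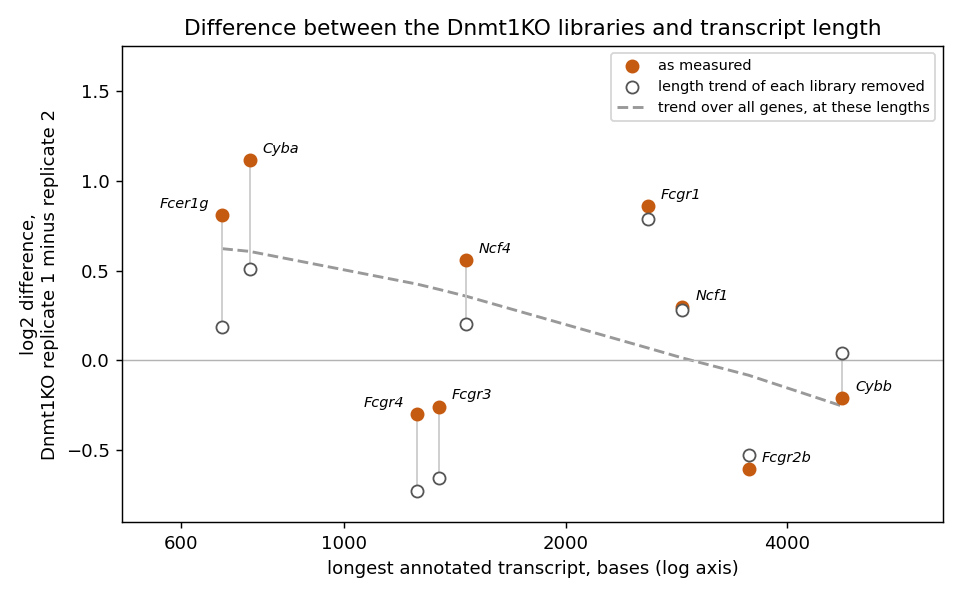
The vertical axis is the log2 difference between Dnmt1KO replicate 1 and replicate 2, and the horizontal axis the longest annotated transcript of each gene in bases, on a log axis. Orange points are values as measured, open points are values after removal of each library's length trend, and the dashed line is that trend over all genes at the members' lengths. Fcer1g lies 0.19 above the trend and Cyba 0.51 above it, whereas Fcgr3 and Fcgr4, also short, lie below it by more than either.

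Ratios between members within a library do not depend on scaling between libraries, and 6 were compared. They were not corrected for the length trend of each library. The log2 ratio of Fcgr4 to the inhibitory Fcgr2b was -1.65 and -1.59 in Dnmt1fl/fl, and -1.37 and -1.68 in Dnmt1KO libraries. That of Fcgr1 to Fcgr2b was -1.36 and -1.41 in Dnmt1fl/fl, and -0.46 and -1.92 in Dnmt1KO libraries. In both, the Dnmt1KO libraries enclosed the controls. The ratio of Fcgr3 to Fcgr2b, which shares the uncertainty of their common sequence, was 0.52 and 0.44 in Dnmt1fl/fl against 0.69 and 0.34 in Dnmt1KO libraries.
Fcer1g against the sum of the activating receptors that use it was at -1.42 and -1.20 in Dnmt1fl/fl, and at -0.67 and -1.52 in Dnmt1KO libraries. Cybb exceeded Cyba in counts in 3 libraries, by 1.25 and 0.99 in Dnmt1fl/fl and 1.21 in Dnmt1KO replicate 2, but not in Dnmt1KO replicate 1, at -0.12. With the length trend removed, Cybb was above Cyba in Dnmt1KO replicate 1 too, at 1251.3 against 915.3 CPM. Ncf1 to Ncf4 was the single ratio whose genotypes did not overlap, at 2.32 and 2.35 in Dnmt1fl/fl and 2.47 and 2.74 in Dnmt1KO libraries. The difference was 0.27, or 0.40 without Dnmt1KO replicate 1 and 0.14 without Dnmt1KO replicate 2. Over all 4 libraries it had an exact two-sided permutation p of 0.3333, the smallest this design can give, and 1.00 after adjustment over the 6 ratios. The exact p of the other ratios was 0.6667 for Cybb to Cyba and 1.00 for the remaining 4.

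**Figure D4:**
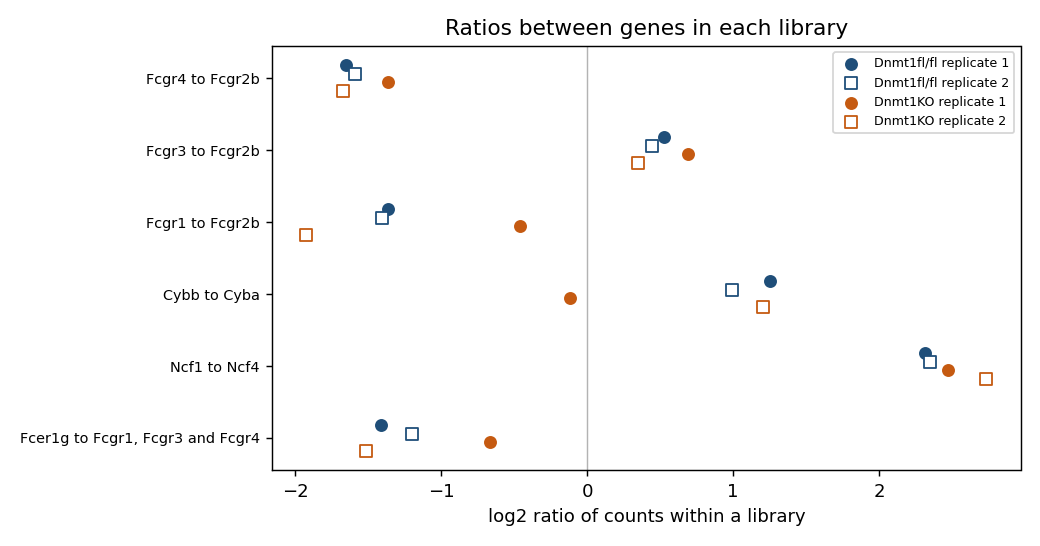
The horizontal axis is the log2 ratio of a gene's counts to those of another gene, or for Fcer1g to the sum of 3 receptor genes, within a library, with 1 row for each ratio; circles are replicate 1, squares replicate 2, blue Dnmt1fl/fl and orange Dnmt1KO. The Dnmt1fl/fl points lie close together for Fcgr1 to Fcgr2b, at -1.36 and -1.41, whereas the Dnmt1KO points lie at -0.46 and -1.92.

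Other genes of the pathway were counted from lists written beside the members. Among 6 partners of the oxidase, 0 passed the adjusted edgeR test and 0 had an unadjusted p under 0.05. Their estimates ran from -0.11 to 0.27, with a median of 0.14. Of 7 other NADPH oxidase genes and their organisers, 2 were listed in the table and 1, Noxo1, was tested, at 0.353 to 1.31 CPM.

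Of 24 genes that carry the signal of activating receptors, 24 were tested and 0 had an unadjusted p under 0.05. Both Dnmt1KO libraries were higher in 1 gene and lower in 3, where 8.14% and 8.56% of all genes were, so these counts are near the background. Blnk, an adaptor downstream of Syk, was at 121 and 96.2 CPM in Dnmt1fl/fl and 146 and 122 CPM in Dnmt1KO macrophages, a log2 fold change of 0.30. Vav3 had a log2 fold change of -0.14, and Prkcd, a kinase that phosphorylates Ncf1, of -0.0909. The median of the list was -0.037.
Of 15 inhibitory signalling genes, 0 passed at an unadjusted p under 0.05, with a median of -0.032. Inpp5d, the phosphatase recruited by Fcgr2b, was at 168 and 150 CPM in Dnmt1fl/fl and 168 and 181 CPM in Dnmt1KO macrophages, a log2 fold change of 0.14. Lilrb4a, an inhibitory receptor, was at 804 and 766 CPM in Dnmt1fl/fl, and at 319 and 750 CPM in Dnmt1KO macrophages, a log2 fold change of -0.56. Its lower mean in Dnmt1KO thus came mainly from replicate 1.
Among 13 other Fc receptor genes, 9 were tested and Dnmt1KO replicate 1 was below replicate 2 by at least 0.2 in 8, against 39.6% of all genes. The B cell markers were at 184 and 608 CPM in these libraries, and their part in this count was not tested. Fcrls, a Fc receptor-like gene, was at 17.0 and 17.9 CPM in Dnmt1fl/fl and 9.19 and 16.7 CPM in Dnmt1KO macrophages. Among 18 actin genes of the phagocytic cup, Dnmt1KO replicate 1 was above replicate 2 by at least 0.2 in 12 and below in 1, against 38.2% and 39.6% of all genes, with a median genotype estimate of 0.12 and 0 genes past the unadjusted threshold.

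The genes whose levels over the 4 libraries were most like the median profile of the members were Btd, Ddx20, Rpl7a, Osgep and Rpl6, taken from 8448 other genes with a mean of at least 10 CPM. Their distances to that profile, as the Euclidean distance of centred log2 CPM, ran from 0.044 to 0.047. The profile itself was -0.077 and -0.067 in Dnmt1fl/fl, 0.262 in Dnmt1KO replicate 1 and -0.03 in Dnmt1KO replicate 2. It rests on 4 libraries and is set mainly by Dnmt1KO replicate 1, and it does not describe every member. Fcgr2b (-0.271), Cybb (-0.207), Fcgr3 (-0.078) and Fcgr4 (-0.067) were below their own mean in that library.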

How the data were processed

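The authors aligned paired-end reads to mm10 with HISAT2 2.0.5 and counted them per gene with featureCounts 1.5.0-p3, as the methods and the submitters' processing notes name them, and the annotation is not given in the sources used here. The deposited values are estimated counts per gene, not normalized, of which 72.6% to 76.4% per sample are whole numbers, and the table lists genes above 0 in every sample. A second, shorter table repeats rows of the first and was not used. Counts were rounded, filtered with filterByExpr, scaled with TMM and compared with edgeR 4.0.16 (R 4.3.3; quasi-likelihood F-test, two-sided, Benjamini-Hochberg over 12542 genes). Standard errors and 95% intervals come from the quasi-likelihood statistic. A floor of 3 counts equals 0.12 to 0.151 CPM. It reflects counting error alone, because reads copied by PCR are not separate molecules. The models were tested on simulated counts.

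Alternatives comprised limma-voom (limma 3.58.1), DESeq2 1.42.0, further scalings and filters, leaving out each sample, and a block by replicate number. The numbers come from sample titles, and the labels do not say that they pair the samples. Same-numbered samples deviated in opposite directions (correlation of -0.34 across genes). With 2 samples per genotype, this cannot decide whether same-numbered samples were handled together. The crossed block and removal of each library's loess trend (span 0.5) with longest GENCODE M21 transcript, known for 98.5% of genes, were added after seeing the data. Members and lists were chosen with earlier results of these data known. Named genes beyond the members were, per list, up to 2 rises and 2 falls among genes with non-overlapping genotypes and at least 10 CPM, the 5 genes nearest the members' median profile, and Dnmt1. Noxo1, S100a9 and neutrophil genes that were not tested were named after their values were seen. Permutation tests used SciPy 1.17.1.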

Additional observations from a re-analysis of the deposited data

How the results depend on the processing

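The adjusted threshold was passed by 0 genes in edgeR, by 1 with DESeq2, by 3 with the added crossed replicate block and by 0 to 1061 when a single sample was left out, the highest without Dnmt1KO replicate 2. With the replicate block 0 genes passed, the median log2 fold change of the 9 genes was 0.1648 against 0.1725, and the block changed no call. Across the 9 alternatives that kept all samples, 81 member estimates included 0 reversals of sign, although removing the length trend lowered Cyba to 0.2086, Fcer1g to 0.18, Fcgr3 to 0.0133 and Ncf4 to -0.1457, and no member had an adjusted p under 1.00. Across the 36 estimates with a sample left out there were 8 reversals. They were Fcgr1, Fcer1g and Cyba without Dnmt1KO replicate 1, Fcgr2b, Fcgr3 and Ncf4 without Dnmt1KO replicate 2, Ncf1 without Dnmt1fl/fl replicate 1 and Ncf4, at 0.229, without Dnmt1fl/fl replicate 2. The members' median ran from -0.036 to 0.23 over these fits, and the cause was not tested. The number of members with non-overlapping genotypes, 2, was 1 (Cybb) with library totals alone, 0 with the length trend removed and 3 to 8 with a sample left out, where 3 libraries separate more easily than 4. The leave-one-out estimates ran from -0.18 to 0.68 for Fcgr1, -0.24 to 0.37 for Fcgr2b, -0.029 to 0.23 for Fcgr3, -0.036 to 0.77 for Fcer1g, -0.20 to 0.92 for Cyba, -0.0074 to 0.50 for Ncf1 and -0.34 to 0.23 for Ncf4. Genotype differences of 5 ratios turned without Dnmt1KO replicate 1, where they were lowest or, for Cybb to Cyba, highest. They ran from -0.0537 to 0.2534 for Fcgr4 to Fcgr2b, -0.1379 to 0.211 for Fcgr3 to Fcgr2b, -0.5403 to 0.9231 for Fcgr1 to Fcgr2b, -1.2394 to 0.0843 for Cybb to Cyba and -0.2112 to 0.6383 for Fcer1g to its receptors. The difference for Ncf1 to Ncf4 ran from 0.1393 to 0.4047 and kept its sign. Fcgr3 to Fcgr2b also turned without Dnmt1fl/fl replicate 2. Every alternative that leaves 1 sample in a genotype assumes that it varies like the other genotype. Every member had at least 2391 counts in every sample.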
